A study of Mus musculus with 29 samples.

Results

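Enteroendocrine cells are the scattered hormone-releasing cells of the gut lining, and 10 of their genes were followed across 9 groups of mouse colon. The members are the rows of the count table whose Ensembl identifiers map to Chga, Chgb, Gcg, Pyy, Insl5, Sst, Tph1, Nts, Cck and Neurod1. All 10 were found among 54532 genes, each at 1 identifier, and all 10 were among the 18616 genes tested because their mean count was at least 3. Nts passed that limit with a mean of 12 counts, and with 4.21 counts when the mouse that held most of its reads was left out.

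Enteroendocrine cells arise from the same stem cells as the other epithelial cells of the gut, under transcription factors that include Neurog3 and Neurod1. They sense food, microbial products and stretch, and release peptides and amines from dense-core granules whose matrix is made largely of granins such as Chga and Chgb. In the colon the main kinds are L cells, which release glucagon-like peptides (from Gcg), peptide YY (Pyy) and insulin-like peptide 5 (Insl5), and enterochromaffin cells, which make serotonin through Tph1. D cells release somatostatin (Sst), which restrains other secretory cells, whereas cholecystokinin (Cck) and neurotensin (Nts) are better known from the small intestine.

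The data are RNA-seq read counts per gene from colon segments of 29 mice, with between 10725564 and 14977094 counts per mouse (median 12287039), so that 3 counts correspond to 0.179 to 0.313 CPM, the count of a gene scaled to a common library size with edgeR's TMM factors. The BALB/c mice comprised 3 untreated wild-type controls, 3 given 3% dextran sulfate sodium (DSS) in drinking water for 5 days and culled at day 10, 3 given 3 mg dinitrobenzene sulfonic acid (DNBS) in 50% ethanol rectally, 4 labelled as treated with IL-10 antibodies (750 µg of anti-IL-10R, culled after 4 weeks), 3 untreated Rag2-/- controls, and 4 TRUC mice, which lack Tbx21 and Rag2 and develop colitis without treatment. The C57BL/6 mice, labelled Rag1-/-, comprised 3 untreated controls, 3 recipients of naive CD4+ T cells (TCT, culled after 6 to 8 weeks) and 3 given 50 µg of an agonist antibody to CD40 (culled after 7 days). Rag-deficient mice have no T or B cells, so the Rag2-/- and TRUC groups, the labelled Rag1-/- controls and the anti-CD40 mice had innate immunity only, and the TCT mice had the T cells they received. Each model is compared with the untreated mice of its labelled background, so DSS, DNBS and IL-10 blockade share 1 control group and TCT and anti-CD40 share another. For TCT the labels conflict on genotype, as described next, and whether these mice match their controls was not tested.

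Some labels and libraries need care. The labels of 3 groups did not settle their genotype: the transferred cells are described as given to Rag2-/- mice in one label and to Rag1-/- mice in another, Rag2 reads were 6 to 20 in the labelled Rag1-/- controls and 48 to 99 in the anti-CD40 mice but 0 in the TCT mice, and Rag1 reads were 20 to 33 in the TCT mice and at most 4 in all other libraries. Rag2 reads were also found in the Rag2-/- controls (15 to 25) and TRUC mice (57 to 94), and Tbx21 reads in TRUC mice (26 to 52), so reads of a targeted gene do not settle a genotype here. The labels give antibody treatment for the IL-10 group where the study's text speaks of Il10-/- mice, and that group had 61 to 111 Il10 reads against 1 to 4 in its controls. For DSS the study's text names C57BL/6 mice and an earlier cull, and for TCT an earlier range of cull weeks. The labels were followed in each case. The library of IL-10 blockade mouse 4 stood apart. Hoxb13, a gene of the most distal colon, was at 457, 456, 344 and 0.209 CPM in the 4 mice of that group, Hoxd13 at 249, 275, 7.89 and 0.313 CPM and Cdx2, a gene of the intestinal lining, at 15.6, 11.3, 167 and 469 CPM. Mouse 4 was thus near 0 for both Hox genes, mouse 3 was low for Hoxd13 and for Hoxd12 (0.772 CPM against 10.3 and 18.2 CPM in mice 1 and 2), and the wild-type controls ranged from 408 to 574 CPM for Hoxb13. Because the main fit estimates the spread of each gene from all 29 mice, this library also widens the errors of Insl5, Pyy, Sst and Nts in the other models, and results are therefore given with and without it.

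The 10 genes lie on 8 chromosomes (GRCm38, GENCODE M21). Chga is at chromosome 12, 102554969 to 102565028, Chgb at chromosome 2, 132781278 to 132795079, Gcg at chromosome 2, 62474530 to 62483650, Pyy at chromosome 11, 102106676 to 102107832 and Insl5 at chromosome 4, 103017872 to 103026842. Sst is at chromosome 16, 23889573 to 23890958, Tph1 at chromosome 7, 46644641 to 46672537, Nts at chromosome 10, 102481756 to 102490486, Cck at chromosome 9, 121489824 to 121495694 and Neurod1 at chromosome 2, 79452521 to 79456751. All are protein-coding, and only Neurod1 overlaps annotated neighbours (Cerkl and Gm26755), so its reads could be shared: of its 50-base exon windows 5.71% also occur in a transcript of another gene, against at most 0.0958% for the other members.

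The 250 bases before the RefSeq start of each member (GRCm38.p6, all 10 matched) were searched on both strands for 3 short motifs. The cAMP response element TGACGTCA, bound by CREB and well known from the somatostatin promoter, was found in Sst and Chgb and in 1.62% of 27025 promoters of the same length. CAGATG, an E-box of the kind that Neurod1 binds, was found in Gcg and Cck and in 14.5% of promoters, and the TATA box TATAAA in Gcg and Insl5 and in 13.0%. The 4 promoters with a response element or an E-box are shown, since Gcg and Cck are the members called higher in the most models and Chgb and Sst are described below. Capitals mark the motifs, which do not overlap, and each sequence ends at the base before the RefSeq start. That start can differ from the GENCODE span given above: the Chgb stretch lies inside its span and the Sst stretch overlaps its span in part.
Chgb (chr2:132781392-132781641, plus strand): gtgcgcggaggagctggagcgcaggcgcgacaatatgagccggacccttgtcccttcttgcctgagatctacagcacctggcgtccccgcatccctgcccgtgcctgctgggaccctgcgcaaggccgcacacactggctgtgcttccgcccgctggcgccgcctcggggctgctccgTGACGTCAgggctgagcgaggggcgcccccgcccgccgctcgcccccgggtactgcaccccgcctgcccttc
Sst (chr16:23890845-23891094, minus strand): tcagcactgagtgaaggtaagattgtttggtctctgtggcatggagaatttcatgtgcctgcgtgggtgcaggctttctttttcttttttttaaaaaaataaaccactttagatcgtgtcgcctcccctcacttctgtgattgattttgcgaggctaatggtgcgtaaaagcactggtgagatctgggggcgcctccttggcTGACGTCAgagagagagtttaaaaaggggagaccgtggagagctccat
Gcg (chr2:62483654-62483903, minus strand): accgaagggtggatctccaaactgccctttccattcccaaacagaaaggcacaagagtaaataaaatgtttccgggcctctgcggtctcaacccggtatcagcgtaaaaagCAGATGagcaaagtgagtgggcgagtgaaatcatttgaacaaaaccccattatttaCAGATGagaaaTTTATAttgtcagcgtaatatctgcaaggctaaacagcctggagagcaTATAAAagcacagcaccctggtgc
Cck (chr9:121495695-121495944, minus strand): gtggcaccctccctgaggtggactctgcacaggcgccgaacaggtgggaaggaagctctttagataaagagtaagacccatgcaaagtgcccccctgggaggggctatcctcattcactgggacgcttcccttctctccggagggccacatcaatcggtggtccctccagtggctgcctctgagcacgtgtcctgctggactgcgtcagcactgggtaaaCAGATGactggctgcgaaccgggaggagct
The response element begins 72 bases before the start of Chgb and 48 bases before that of Sst. In Gcg the E-boxes begin 139 and 83 bases before the start, and the TATA letters 72 (in reverse) and 24 bases before it. In Cck the E-box begins 30 bases before the start. These matches describe letters, and binding was not measured here.

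In untreated wild-type colon the members spanned about 3 orders of magnitude in level per length. On the scale of CPM per kilobase of exon, mean levels were 138 (range 121 to 150.0) for Pyy and 114 (range 98.5 to 127) for Insl5, whose mice overlapped. Next came Chgb at 49.7 (range 47.0 to 54.7), Chga at 21.2 (range 19.0 to 25.2), Gcg at 13.9 (range 12.3 to 15.1) and Sst at 11 (range 10.4 to 11.9), with no overlap between neighbours in this order. Tph1 followed at 2.84 (range 2.34 to 3.72), Neurod1 at 0.671 (range 0.601 to 0.753), Cck at 0.510 (range 0.377 to 0.642) and Nts at 0.179 (range 0.0610 to 0.263), with Neurod1 and Cck overlapping. L-cell hormones and granins thus led the order, and the hormones of the small intestine closed it. Markers of the labelled tissue were present: epithelium genes summed to 12096 to 14173 CPM in these controls, and the islet genes Ins1 and Ins2 had no read in any of the 29 libraries.

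Comparisons were made with edgeR's quasi-likelihood test on all 29 mice and 9 groups, and a gene was called where its p, adjusted over the 18616 genes, was under 0.05. Log2 fold changes are given ± their standard error. The control groups were compared first, since each model is read against its own. Between Rag2-/- and wild-type controls 8.11% of all genes were called in either direction, and 2 members were, both higher: Gcg (log2 fold change 1.14 ± 0.27, adjusted p = 0.0064) and Chgb (0.87 ± 0.26, adjusted p = 0.040). The Chgb call was lost when any 1 of 6 mice was left out, 5 of them from these 2 groups. Between the labelled Rag1-/- and wild-type controls 10.9% of genes were called, and Gcg alone of the members, at 1.31 ± 0.27, adjusted p = 0.0017. Without IL-10 blockade mouse 4, Pyy and Insl5 were called in addition in both comparisons, with log2 fold changes of 1.10 (adjusted p = 2.4e-05) for Insl5 in Rag2-/- and 1.06 (adjusted p = 4.2e-05) in Rag1-/- controls. The 2 Rag-deficient control groups differed in 0.124% of all genes and in 0 members by edgeR, also at an unadjusted p under 0.05. By their labels, which did not settle the genotype of the Rag1-/- group, the wild-type and Rag1-/- groups differ in strain as well as genotype, which cannot be told apart.

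Chga and Chgb encode chromogranin A and secretogranin I, the granule proteins that mark most enteroendocrine cells. The Chga level was 52.5, 53.4 and 69.3 CPM in the untreated wild-type mice, 83.3, 112 and 156 CPM after DSS, 54.5, 73.2 and 71.5 CPM after DNBS and 39.1, 42.3, 22.1 and 17.2 CPM after IL-10 blockade. In the Rag2-/- controls it was 71.2, 89.9 and 72.1 CPM, and in TRUC mice 34.4, 25.4, 34.1 and 32.1 CPM. The labelled Rag1-/- controls gave 69.8, 56.8 and 62.3 CPM, the T-cell recipients 27.9, 23.9 and 27.8 CPM and the anti-CD40 mice 42.6, 46.0 and 52.6 CPM. All 3 DSS mice lay above, and all 4 IL-10 blockade mice below, the wild-type controls, with mice 3 and 4 lowest. TRUC and TCT mice lay below their controls without overlap, anti-CD40 mice did so more narrowly, and DNBS mice overlapped their controls. Chga rose after DSS (log2 fold change 1.00 ± 0.24, adjusted p = 0.0028). It fell in TRUC mice (-1.30 ± 0.23, adjusted p = 9.6e-05), with TCT (-1.25 ± 0.25, adjusted p = 4.9e-04) and after IL-10 blockade (-0.95 ± 0.23, adjusted p = 0.0014). The anti-CD40 difference was -0.42 ± 0.24, adjusted p = 0.23. In bulk tissue fewer cells of a type and less RNA per cell cannot be told apart, here and in all results that follow.

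The Chgb level was 129.8, 129 and 149.9 CPM in the untreated wild-type mice, 195, 294 and 411 CPM after DSS, 142, 183 and 139.6 CPM after DNBS and 94.0, 84.3, 46.9 and 33.5 CPM after IL-10 blockade. It was 253, 282 and 209 CPM in the Rag2-/- controls and 184, 160.1, 158 and 172 CPM in TRUC mice. With TCT the values were 76.7, 76.1 and 74.1 CPM, after anti-CD40 179.6, 172 and 219.7 CPM, and in the Rag1-/- controls of both 199, 165 and 201 CPM. Chgb followed Chga in DSS, IL-10 blockade and TCT mice, each outside the range of its controls. Chgb rose after DSS (log2 fold change 1.14 ± 0.26, adjusted p = 0.0018), and fell with TCT (-1.32 ± 0.27, adjusted p = 5.2e-04) and after IL-10 blockade (-1.07 ± 0.24, adjusted p = 8.3e-04). In TRUC mice the value was -0.56 ± 0.24, adjusted p = 0.062, and without IL-10 blockade mouse 4 it was -0.53 (adjusted p = 0.029), although all 4 mice lay below all 3 controls. The anti-CD40 and DNBS mice overlapped their controls.

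**Figure D1:**
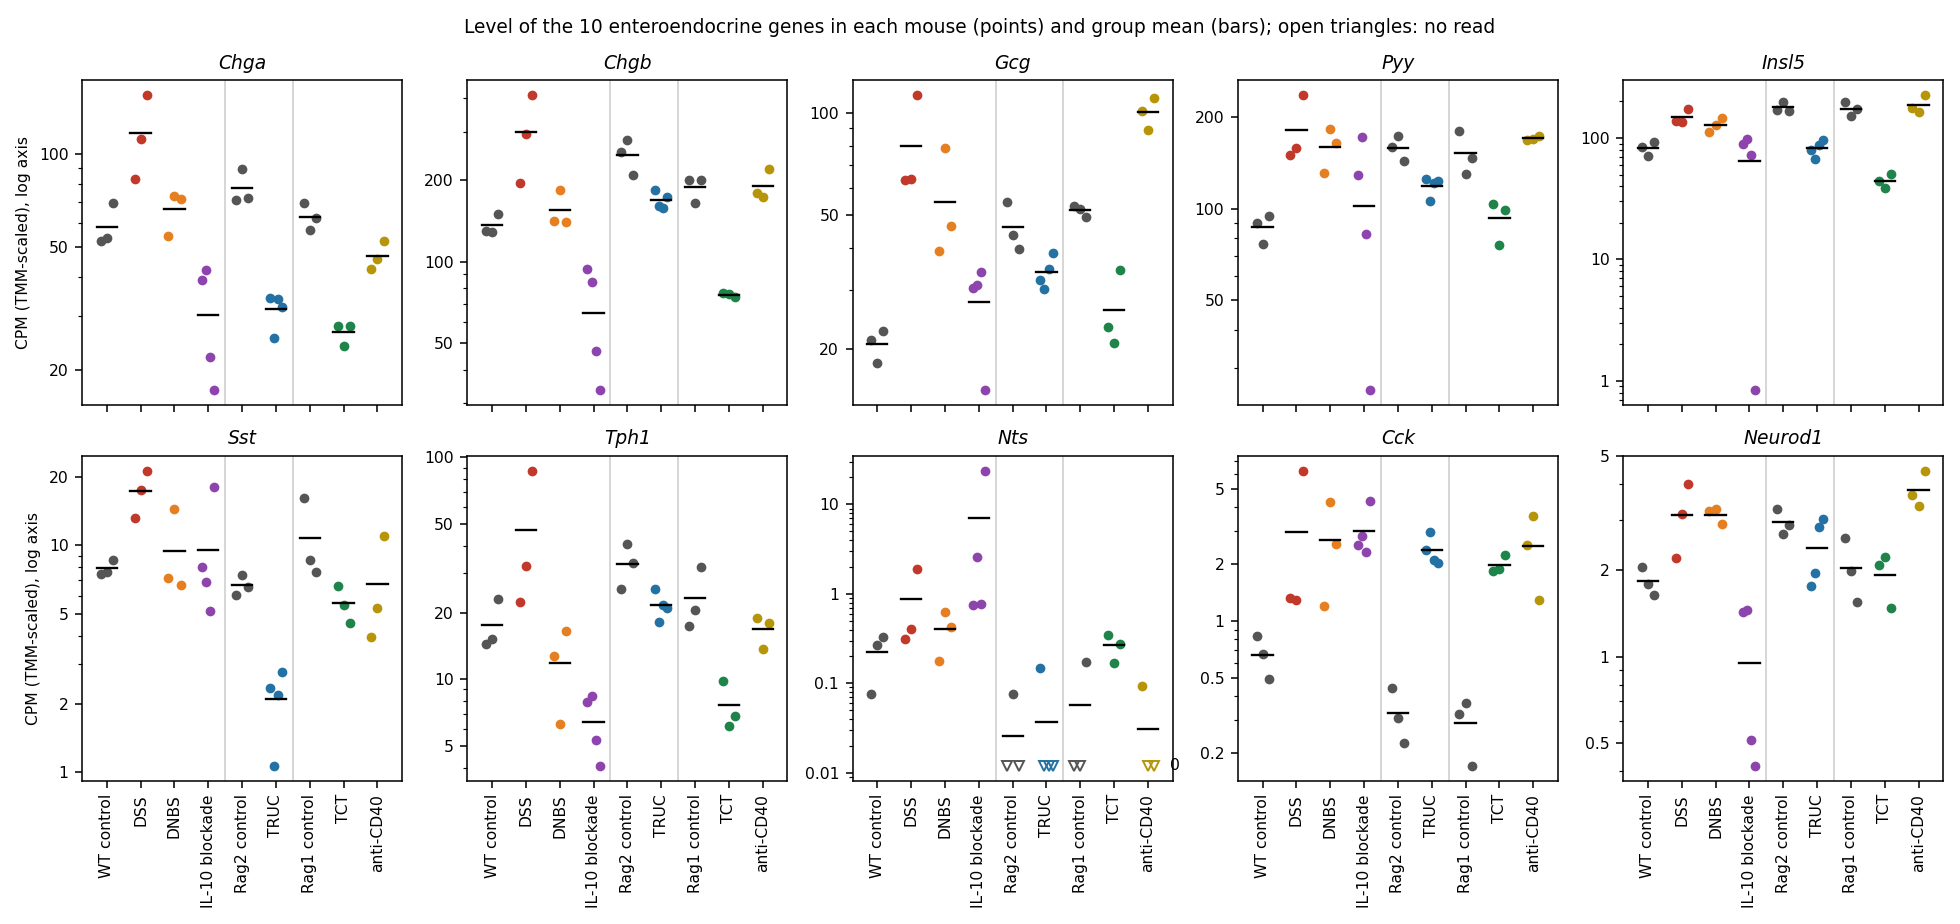
Level of each member in each mouse on a logarithmic axis of TMM-scaled CPM (the lowest position holds mice without a read), with bars at group means and vertical lines between the sets that share a control. Cck lies above its controls in all 6 models, the group mean of the DSS mice is the highest for Chga and Chgb, and IL-10 blockade mouse 4 stands alone for Insl5 and Nts.

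Gcg encodes proglucagon, the precursor of the glucagon-like peptides. The Gcg level was 21.4, 18.3 and 22.6 CPM in the untreated wild-type mice, 63.5, 63.7 and 113 CPM after DSS, 39.2, 78.5 and 46.5 CPM after DNBS and 30.3, 31.1, 33.9 and 15.2 CPM after IL-10 blockade. TRUC mice had 32.0, 30.2, 34.5 and 38.7 CPM, and their Rag2-/- controls 54.6, 43.4 and 39.7 CPM. Rag1-/- controls were at 53.2, 52.1 and 49.2 CPM, TCT mice at 23.3, 20.8 and 34.4 CPM and anti-CD40 mice at 101, 89.2 and 111 CPM. DSS, DNBS and anti-CD40 mice all exceeded their controls, TRUC and TCT mice lay below theirs, and the wild-type controls were lower than either Rag-deficient control group. Gcg rose after DSS (log2 fold change 1.94 ± 0.27, adjusted p = 1.7e-05), after DNBS (1.40 ± 0.27, adjusted p = 0.0051) and after anti-CD40 (0.96 ± 0.26, adjusted p = 0.011). It fell with TCT (-0.98 ± 0.27, adjusted p = 0.0071). Against wild-type in place of Rag1-/- controls the TCT value turned positive, at 0.33, so the direction of this change rests on the choice of control. In TRUC mice the value was -0.44 ± 0.24, adjusted p = 0.15. After IL-10 blockade it was 0.41 ± 0.25, adjusted p = 0.17, and without mouse 4 it was 0.61 (adjusted p = 0.033).

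Pyy encodes peptide YY, which slows transit and secretion. The Pyy level was 90.0, 76.5 and 94.7 CPM in the untreated wild-type mice, 149.6, 158 and 236 CPM after DSS, 131, 183 and 164 CPM after DNBS and 129, 172, 82.4 and 25.3 CPM after IL-10 blockade. In the Rag2-/- controls it was 159.7, 173 and 143 CPM, and in TRUC mice 125, 106, 122 and 123 CPM. The labelled Rag1-/- controls gave 180.4, 130.5 and 146 CPM, the T-cell recipients 104, 75.8 and 98.9 CPM and the anti-CD40 mice 168, 169 and 173 CPM. DSS and DNBS mice lay above, and TRUC and TCT mice below, their controls without overlap, whereas the IL-10 blockade group ran from below to above its controls. Pyy rose after DSS (log2 fold change 1.06 ± 0.35, adjusted p = 0.022), and no other model passed the threshold in the fit of all mice. Without IL-10 blockade mouse 4, the DNBS mice at 0.88 (adjusted p = 0.011), the IL-10 blockade mice at 0.55 (adjusted p = 0.028) and the TCT mice at -0.70 (adjusted p = 0.0099) passed as well. TRUC mice gave -0.39 (adjusted p = 0.089) in that fit. The DSS call was lost without wild-type control 1 (adjusted p = 0.054) or 2 (0.080) or DSS mouse 8 (0.12), and the TCT value turned to 0.093 against wild-type controls.

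Insl5 encodes a hormone of distal colonic L cells. The Insl5 level was 85.0, 71.3 and 92.1 CPM in the untreated wild-type mice, 139, 136 and 173 CPM after DSS, 112, 129 and 146 CPM after DNBS and 89.0, 97.3, 72.5 and 0.836 CPM after IL-10 blockade. It was 171, 199 and 168 CPM in the Rag2-/- controls and 79.5, 67.7, 88.2 and 97.0 CPM in TRUC mice. With TCT the values were 44.6, 39.0 and 50.1 CPM, after anti-CD40 176, 163 and 226 CPM, and in the Rag1-/- controls of both 197, 152 and 175 CPM. IL-10 blockade mouse 4 had 8 reads of Insl5, and the other 3 mice of its group lay within or next to the range of their controls. TRUC and TCT mice lay below their controls and DSS and DNBS mice above theirs, each without overlap. In the fit of all mice, Insl5 fell with TCT alone (log2 fold change -1.97 ± 0.59, adjusted p = 0.014), and the TRUC value was -1.11 ± 0.53, adjusted p = 0.090. The TCT call was lost without TCT mouse 3 (adjusted p = 0.054) and against wild-type controls, where the value was -0.89. Without IL-10 blockade mouse 4 the same differences became much better resolved: -1.95 (adjusted p = 3.9e-09) with TCT, -1.08 (adjusted p = 4.6e-06) in TRUC mice, 0.84 (adjusted p = 2.6e-04) after DSS and 0.65 (adjusted p = 0.014) after DNBS. The IL-10 blockade value itself went from -0.35 with that mouse to 0.05 (adjusted p = 0.80) without it, and anti-CD40 gave 0.14 (adjusted p = 0.56).

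**Figure D2:**
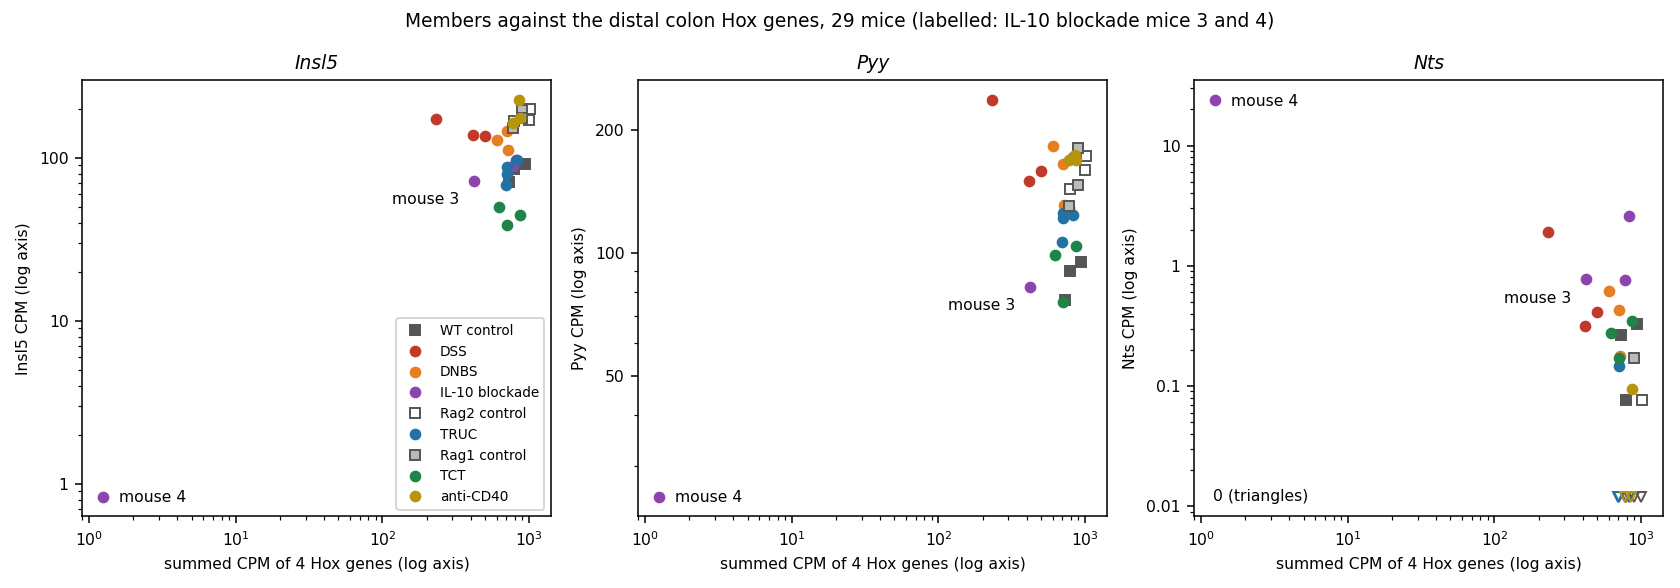
Insl5, Pyy and Nts of each of the 29 mice against the summed level of Hoxa13, Hoxb13, Hoxd12 and Hoxd13, on logarithmic axes of CPM. IL-10 blockade mouse 4, at 1.25 CPM for the Hox genes, is lowest for Insl5 and Pyy and highest for Nts, and the other mice of the series lie between 233 and 1011 CPM on the Hox axis.

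Sst encodes somatostatin. The Sst level was 7.46, 7.65 and 8.61 CPM in the untreated wild-type mice, 13.1, 17.5 and 21.3 CPM after DSS, 7.16, 14.4 and 6.65 CPM after DNBS and 8.00, 6.86, 5.14 and 18.1 CPM after IL-10 blockade. TRUC mice had 2.36, 1.07, 2.20 and 2.77 CPM, and their Rag2-/- controls 6.02, 7.42 and 6.57 CPM. Rag1-/- controls were at 16.1, 8.61 and 7.65 CPM, TCT mice at 6.63, 5.47 and 4.54 CPM and anti-CD40 mice at 3.94, 5.31 and 11 CPM. The 4 TRUC mice were the lowest of the series, and all 3 DSS mice exceeded their controls, while mouse 4 again stood out in the IL-10 blockade group, here on the high side. Sst fell in TRUC mice (log2 fold change -1.66 ± 0.41, adjusted p = 0.0024) and rose after DSS (1.13 ± 0.41, adjusted p = 0.035). The DSS call was lost without any 1 of the wild-type controls or DSS mouse 6 or 8 (adjusted p = 0.058 to 0.13). TCT gave -0.96 ± 0.42, adjusted p = 0.087, and -0.94 (adjusted p = 0.044) without IL-10 blockade mouse 4. The sign for IL-10 blockade depended on that mouse, from 0.26 with it to -0.25 (adjusted p = 0.57) without it.

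Tph1 encodes the rate-limiting enzyme of serotonin synthesis in enterochromaffin cells. The Tph1 level was 14.5, 15.2 and 23.0 CPM in the untreated wild-type mice, 22.2, 32.3 and 87.3 CPM after DSS, 12.8, 6.28 and 16.5 CPM after DNBS and 7.92, 8.41, 5.32 and 4.08 CPM after IL-10 blockade. In the Rag2-/- controls it was 25.7, 40.5 and 33.4 CPM, and in TRUC mice 25.4, 18.1, 21.6 and 20.9 CPM. The labelled Rag1-/- controls gave 17.3, 20.5 and 32.1 CPM, the T-cell recipients 9.86, 6.15 and 6.85 CPM and the anti-CD40 mice 18.9, 13.7 and 17.9 CPM. The IL-10 blockade and TCT mice and, more narrowly, the TRUC mice lay below their controls without overlap. DSS mouse 8 carried by far the highest level of the series. Tph1 fell with TCT (log2 fold change -1.61 ± 0.40, adjusted p = 0.0038) and after IL-10 blockade (-1.44 ± 0.37, adjusted p = 0.0026). It rose after DSS (1.43 ± 0.39, adjusted p = 0.0062), but without DSS mouse 8 the value was 0.64 (adjusted p = 0.17). TRUC mice gave -0.63 ± 0.35, adjusted p = 0.15, DNBS mice -0.56 ± 0.39, adjusted p = 0.38 and anti-CD40 mice -0.47 ± 0.39, adjusted p = 0.41.

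Cck, the precursor of cholecystokinin, was the member that rose in all 6 models. The Cck level was 0.838, 0.666 and 0.492 CPM in the untreated wild-type mice, 1.32, 1.30 and 6.23 CPM after DSS, 1.19, 4.26 and 2.56 CPM after DNBS and 2.53, 2.80, 2.32 and 4.28 CPM after IL-10 blockade. It was 0.442, 0.306 and 0.226 CPM in the Rag2-/- controls and 2.36, 2.93, 2.11 and 2.03 CPM in TRUC mice. With TCT the values were 1.83, 1.88 and 2.22 CPM, after anti-CD40 2.53, 3.60 and 1.29 CPM, and in the Rag1-/- controls of both 0.324, 0.368 and 0.172 CPM. Every mouse of every model exceeded all of its controls. The levels are low: the 3 Rag2-/- controls had 5, 4 and 3 reads, the labelled Rag1-/- controls 4, 5 and 2 and the wild-type controls 11, 10 and 6, against 32, 33, 23 and 25 in TRUC mice. Cck rose after anti-CD40 (log2 fold change 3.03 ± 0.62, adjusted p = 0.0015), in TRUC mice (2.84 ± 0.59, adjusted p = 5.1e-04) and with TCT (2.72 ± 0.63, adjusted p = 0.0019). It also rose after IL-10 blockade (2.14 ± 0.52, adjusted p = 0.0016), DSS (2.11 ± 0.54, adjusted p = 0.0041) and DNBS (1.97 ± 0.54, adjusted p = 0.033). By summed reads per scaled library, the ratio to the controls was 8.19 (95% interval 4.36 to 17.0) after anti-CD40, 7.38 (95% interval 4.06 to 14.7) in TRUC mice and 3.79 (95% interval 2.46 to 6.02) after DNBS, where the intervals cover counting error only. One mouse each carried much of the DSS and DNBS results: without DSS mouse 8 the DSS value was 0.96 (adjusted p = 0.15), and without DNBS mouse 14 the DNBS value was 1.45 (adjusted p = 0.18). The DNBS call was also lost without any 1 of the 3 wild-type controls or DNBS mouse 16.

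Nts, the precursor of neurotensin, was at the limit of detection in most groups. Its reads were 1, 4 and 4 in wild-type controls, 9, 25, 9 and 229 after IL-10 blockade, 5, 6 and 24 after DSS and 3, 8 and 5 after DNBS. In the Rag-deficient groups no library had more than 4 reads, so no fold change is given there. All 4 IL-10 blockade mice exceeded the wild-type controls, and mouse 4 alone held 229 of their 272 reads. Nts rose after IL-10 blockade (log2 fold change 4.90 ± 1.09, adjusted p = 7.2e-04), and without mouse 4 the value was 2.53 (adjusted p = 0.0096). By summed reads the ratio to controls was 28.5 (95% interval 14.8 to 63.1) with mouse 4 and 5.81 (95% interval 2.80 to 13.6) without it. After DSS the value was 1.89 ± 1.23, adjusted p = 0.25, with 24 of 35 reads in mouse 8.

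Neurod1 encodes a transcription factor of differentiating enteroendocrine cells. The Neurod1 level was 2.06, 1.80 and 1.64 CPM in the untreated wild-type mice, 2.20, 3.14 and 4.00 CPM after DSS, 3.22, 3.25 and 2.90 CPM after DNBS and 1.43, 1.45, 0.514 and 0.418 CPM after IL-10 blockade. TRUC mice had 1.77, 1.96, 2.84 and 3.01 CPM, and their Rag2-/- controls 3.27, 2.68 and 2.87 CPM. Rag1-/- controls were at 2.59, 1.99 and 1.55 CPM, TCT mice at 2.09, 2.22 and 1.48 CPM and anti-CD40 mice at 3.66, 3.34 and 4.45 CPM. IL-10 blockade mice lay below their controls, mice 3 and 4 most, and DSS, DNBS and anti-CD40 mice lay above theirs. Neurod1 fell after IL-10 blockade (log2 fold change -0.93 ± 0.33, adjusted p = 0.022), and without mouse 4 the value was -0.71 (adjusted p = 0.072). It rose after anti-CD40 (0.90 ± 0.32, adjusted p = 0.046), a call near the threshold that was lost without any 1 of 16 mice, 5 of them from the 2 groups compared. After DSS the value was 0.76 ± 0.32, adjusted p = 0.071, after DNBS 0.77 ± 0.32, adjusted p = 0.14, in TRUC mice -0.30 ± 0.30, adjusted p = 0.44 and with TCT -0.08 ± 0.33, adjusted p = 0.89.

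**Figure D3:**
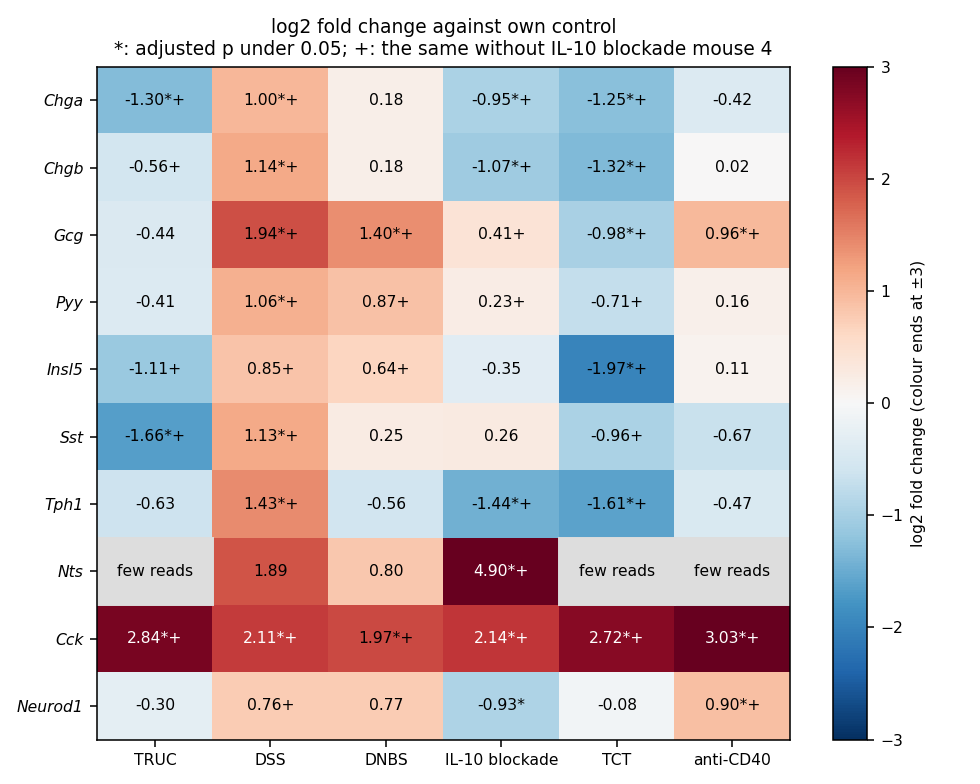
Colour and number give the log2 fold change of each member (rows) in each model (columns) against its own control, with marks for an adjusted p under 0.05 in the fit of all mice and in the fit without IL-10 blockade mouse 4. DSS is positive in all 10 rows, Cck is positive in all 6 columns, and cells for Nts are left grey where few reads were found.

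Read by model, DSS was the model in which most members rose. After DSS 7 of 10 members were higher (Chga, Chgb, Gcg, Pyy, Sst, Tph1 and Cck) where 17.7% of all genes were, and 0 were lower where 16.3% were. The members' median log2 fold change was 1.14 against 0.02 over all genes. Without DSS mouse 8, which carried the highest level of all 10 members in its group and the lowest summed level of distal colon Hox genes of that group (233 CPM), 3 members remained higher (Chga, Chgb and Gcg), and without IL-10 blockade mouse 4 there were 9. The count of 0 lower members was also 0 at an unadjusted p under 0.05 and with DESeq2.

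After DNBS 2 members were higher (Gcg and Cck) where 3.95% of all genes were, and 0 lower where 2.21% were, also 0 at an unadjusted p under 0.05 and with DESeq2. The members' median was 0.70 against 0.01 over all genes. There were 4 higher members without IL-10 blockade mouse 4, with Pyy and Insl5 added.

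In TRUC mice 2 members were lower (Chga and Sst) where 23.4% of all genes were, and 1 higher (Cck) where 22.4% were. The lower share was thus no larger than that of all genes, while the members' median of -0.50 lay below that of all genes, -0.03. There were 4 lower members without IL-10 blockade mouse 4, with Chgb and Insl5 added, and DESeq2 on the TRUC and Rag2-/- mice alone called 7.

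With TCT 5 members were lower (Chga, Chgb, Gcg, Insl5 and Tph1) where 14% of all genes were, and 1 higher (Cck) where 16.1% were. The median was -0.97 against 0.00 over all genes. Pyy and Sst were lower as well without IL-10 blockade mouse 4, giving 7. Against the wild-type controls 3 members were lower.

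After IL-10 blockade 4 members were lower (Chga, Chgb, Tph1 and Neurod1) where 26.1% of all genes were, and 2 higher (Nts and Cck) where 27.2% were. The median was -0.06 against -0.01 over all genes. Without mouse 4 there were 3 lower (Chga, Chgb and Tph1) and 4 higher (Gcg, Pyy, Nts and Cck), so the granins and Tph1 fell whether or not that library was used, while the L-cell peptides Gcg and Pyy were called higher once it was left out. Relative to epithelial genes, a scale described below, Gcg and Pyy were then at -0.12 and -0.16, not called and of the other sign. That scale includes Cdx2, which was at 167 CPM in mouse 3 against 3.88 to 8.11 CPM in the wild-type controls. A scale without Cdx2 was not fitted without mouse 4, so these signs may rest on that gene. With both mice 3 and 4 left out, the granins were still lower and Tph1 was not called, and Pyy, Nts and Cck were higher.

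After anti-CD40 3 members were higher (Gcg, Cck and Neurod1) where 10.9% of all genes were, and 0 lower where 10.7% were. The count of 0 was also 0 at an unadjusted p under 0.05 and with DESeq2, and 1 in edgeR on these 2 groups alone. The median was 0.06 against -0.03 over all genes.

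The size of the change differed between the 6 models for 9 of 10 members by an F test of equal contrasts, as it did for 60.5% of all genes. The adjusted p ran from 8.4e-07 for Gcg and 1.1e-06 for Chgb to 0.013 for Pyy. Cck was the exception (adjusted p = 0.84), with log2 fold changes from 1.97 ± 0.54 to 3.03 ± 0.62, a result that does not show the models to be alike. Nts no longer differed between models without IL-10 blockade mouse 4 (adjusted p = 0.15).

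Colitis changes the make-up of a colon segment, so the members were also measured against 12 genes of epithelial cells in general. On this scale the median of all genes moved to 0.28 after DSS, -0.29 after DNBS, -0.89 after IL-10 blockade, -0.17 in TRUC mice, 0.17 with TCT and -0.19 after anti-CD40, and member changes are read against these shifts. After DSS 8 members were higher (all but Nts and Insl5) where 24.3% of genes were, and 0 lower where 6.81% were, with a median of 1.42. TRUC mice kept 2 lower (Chga and Sst, 24.3% of genes) and 1 higher (Cck, 13.0%). With TCT 4 were lower (Chga, Chgb, Insl5 and Tph1, 6.90%) and 1 higher (Cck, 18.1%), with Gcg at -0.78 ± 0.34, adjusted p = 0.094.

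IL-10 blockade had 4 members lower and 2 higher on the epithelial scale, the same members as before, where 65.1% of all genes were lower and 6.13% higher, and the members' median of -0.89 equalled that of all genes. After DNBS 1 member was higher (Gcg, 1.40% of genes) and 0 lower (6.22%). After anti-CD40 1 was higher (Cck, 4.33%) and 0 lower (10.5%), with 1 lower at an unadjusted p under 0.05, while the counts of 0 for DNBS and DSS were also 0 there. Without IL-10 blockade mouse 4 the lower members became 6 in TRUC and 6 in IL-10 blockade mice, and all 10 were higher after DSS, against 3 without DSS mouse 8. With TCT the 4 lower members became 1 without TCT mouse 3 and 2 without Rag1-/- control 4, and the Gcg call after DNBS was lost without most single mice. Cck was called higher relative to epithelium in 5 models, with DNBS at 1.62 ± 0.55, adjusted p = 0.066. Without IL-10 blockade mouse 4 Cck was called after DNBS as well, but no longer after IL-10 blockade (1.18, adjusted p = 0.071). Epithelium genes summed to 8361 to 11137 CPM after DSS and 17808 to 24259 CPM after IL-10 blockade against 12096 to 14173 CPM in the wild-type controls.

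**Figure D4:**
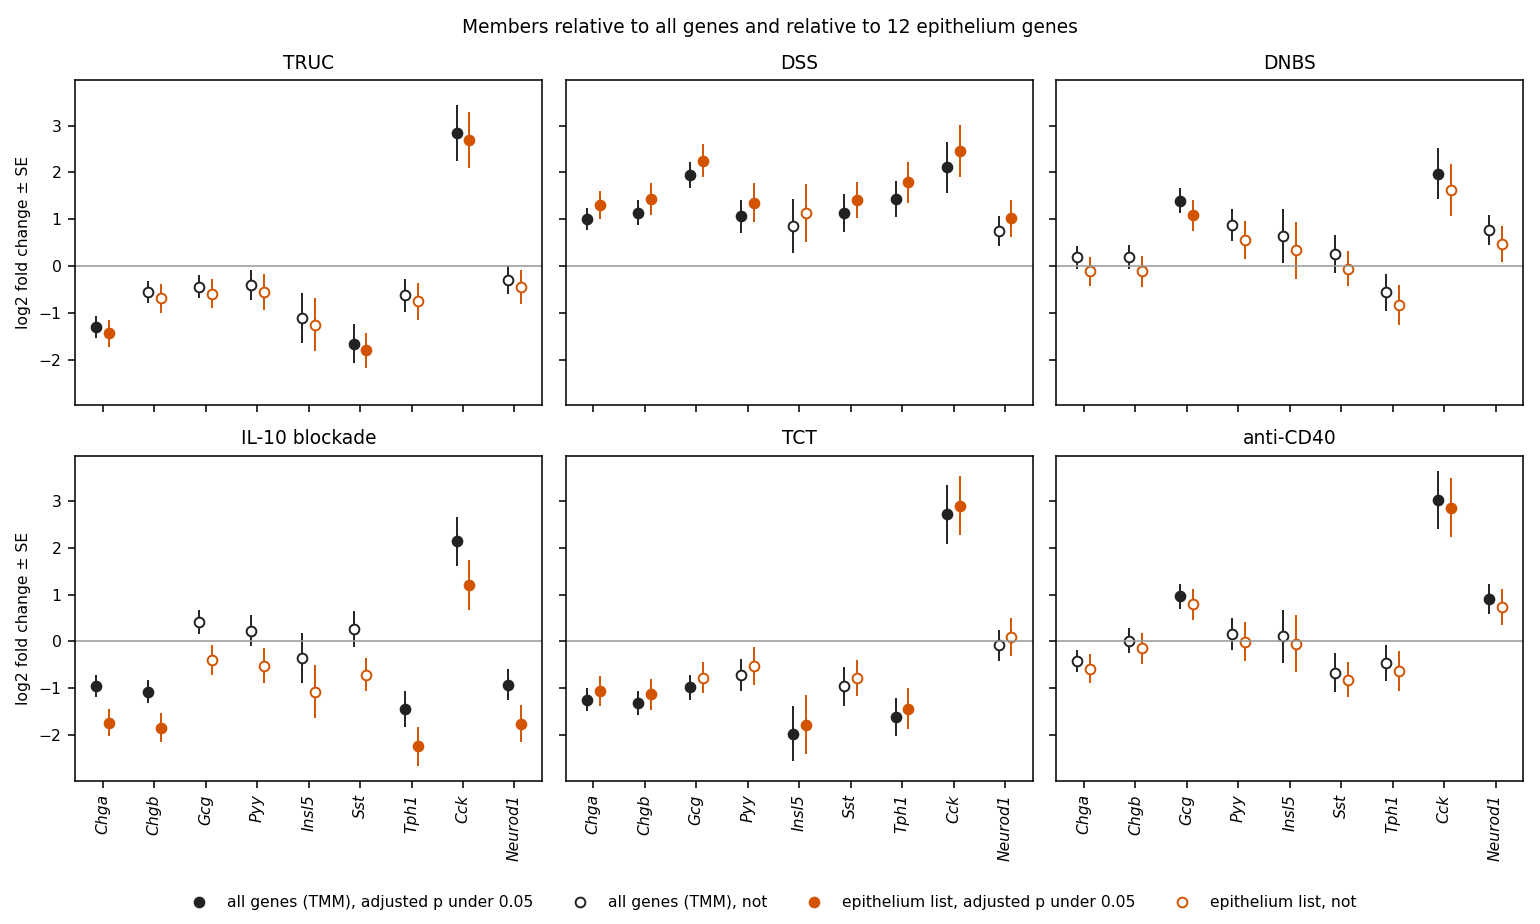
Log2 fold change with its standard error for 9 members in each model, scaled to all genes (black) and to 12 epithelium genes (orange), with filled points where the adjusted p was under 0.05. Chga stays below 0 in TRUC, TCT and IL-10 blockade mice and above 0 after DSS on both scales, and Gcg, Pyy and Sst change sign between the scales after IL-10 blockade.

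Genes that cut and pack these hormones were lower in the models in which Chga fell and higher in the one in which it rose. Of 14 genes of prohormone processing and the granule, 10 were lower in TRUC mice (1 higher), 10 after IL-10 blockade (0 higher, also 0 at an unadjusted p under 0.05 and with DESeq2) and 7 with TCT (0 higher likewise), while 4 were higher after DSS and 0 lower, again also 0 by both other counts. Over all genes 23.4%, 26.1% and 14% were lower in TRUC, IL-10 blockade and TCT mice, and 17.7% were higher after DSS. Median log2 fold changes of the list were -0.99, -0.96, -0.76 and 0.56 in that order. Pcsk1n, an inhibitor of the convertase Pcsk1, averaged 38.1 CPM in Rag2-/- controls and 13.2 CPM in TRUC mice, a log2 fold change of -1.53, and changed by -1.31 with TCT, -0.96 after IL-10 blockade and 0.80 after DSS. Scg5, the chaperone of Pcsk2, changed by -1.59, -1.04, -0.93 and 0.90 in the same models. Resp18 fell in 4 models, from -1.48 after anti-CD40 to -2.49 in TRUC mice. Pam, which amidates peptides, fell in TRUC (-0.97), TCT (-0.94), anti-CD40 (-0.81) and IL-10 blockade mice (-0.75). Cpe, which trims peptides, fell in TRUC (-1.76), IL-10 blockade (-0.95) and anti-CD40 mice (-0.83), and Scg2, another granin, after IL-10 blockade (-1.30). After anti-CD40 3 of the 14 were lower, and 5 to 10 when anti-CD40 mouse 8, DNBS mouse 16, DSS mouse 5 or DSS mouse 8 was left out, and after DNBS 1 was higher. The 4 calls after DSS fell to 0 without DSS mouse 8. The list summed to 605, 799 and 806 CPM in DSS mice 5, 6 and 8, against 491 to 558 CPM in the wild-type controls.

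These granule genes are also used by nerve cells. Of 12 enteric neuron markers, 7 were lower in TRUC mice, 9 after IL-10 blockade, 1 with TCT and 2 after anti-CD40, while 8 were higher after DSS and 1 after DNBS (Ret, 1.77). Over all genes 23.4%, 26.1%, 14% and 10.7% were lower, and 17.7% and 3.95% higher, in the same order of models. The TCT count was thus below the share of all genes, and the anti-CD40 count was near it. Without DSS mouse 8 the 8 became 0, and without DSS mouse 6 or any 1 of the wild-type controls 2 to 4, while the 7 in TRUC mice became 4 without TRUC mouse 4. The 2 after anti-CD40 ranged from 0 without mouse 6 or 7 to 7 without mouse 8, and were 1 without any 1 of 12 other mice. The list summed to 116 to 122 CPM in wild-type controls, 163 to 337 CPM after DSS and 40.6 to 82.4 CPM after IL-10 blockade. In Rag2-/- controls the sum was 104 to 116 CPM and in TRUC mice 57.3 to 93.1 CPM. The neuronal RNA-binding gene Elavl4 changed by -0.93 in TRUC mice, -2.39 after IL-10 blockade and 0.91 after DSS, and Snap25 by -1.07, -1.89 and 0.79. Smooth muscle genes were lower in TRUC (2 of 6) and IL-10 blockade mice (5 of 6, and 3 without wild-type control 1 or 2 or IL-10 blockade mouse 3) and were not called in the other 4 models by edgeR, also 0 at an unadjusted p under 0.05 and with DESeq2. The smooth muscle share in TRUC mice was near that of all genes. The part of nerve and muscle RNA in the member and granule results was not tested.

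Transcription factors of the enteroendocrine lineage were lower in TRUC (7 of 15) and IL-10 blockade mice (10 of 15), at medians of -0.83 and -1.33. Over all genes 23.4% and 26.1% were lower there. With TCT, DSS and anti-CD40 1 was lower and 1 higher in each (0 and 0 for DSS without DSS mouse 8). These shares were below those of all genes, 10.7% to 17.7%. After DNBS 0 were called by edgeR or DESeq2, with 2 higher at an unadjusted p under 0.05. Myt1 fell in IL-10 blockade (-2.60) and TRUC mice (-1.20), as did Pax6 (-1.05 and -1.06), and Isl1 fell after IL-10 blockade (-1.93). Lmx1a, which acts in enterochromaffin cells, fell in IL-10 blockade (-1.48), TCT (-0.99) and TRUC mice (-0.83) and rose after DSS (1.24). Tph1 was called in the same direction in all of these but TRUC mice, where it was at -0.63 ± 0.35, adjusted p = 0.15. Hhex, a factor of somatostatin cells that blood cells also express, rose with TCT (2.38), anti-CD40 (1.18) and in TRUC mice (0.99). All 6, 5 of 6 and all 6 leukocyte markers rose there. All 6 also rose after DSS and IL-10 blockade, where Hhex was not called higher. Which cells carried Hhex was not tested. Insm1, the highest of the list at a mean of 6.95 CPM, was not called in any model, with values from -0.76 to 0.64, and Rfx3 fell after IL-10 blockade (-0.68) and anti-CD40 (-0.50).

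Genes that make, carry and break down serotonin went another way from Tph1 after DSS. Of 9 tested, 6 were lower and 2 higher after DSS, 3 lower and 1 higher in TRUC mice and after IL-10 blockade, 1 of each after DNBS, and 1 higher with TCT and anti-CD40. The lower shares in TRUC and IL-10 blockade mice and the higher share after DSS were near those of all genes (23.4%, 26.1% and 17.7%). The IL-10 blockade count was 6 lower without its mouse 4 and 5 without DSS mouse 5 or 8, and the 2 higher after DSS became 1 without DSS mouse 6 or 8 or any 1 of the wild-type controls. Maoa, which degrades serotonin, averaged 533 CPM in wild-type controls and 250.5 CPM after DSS (-1.09), and Maob fell after DSS (-1.21), in TRUC (-1.29) and IL-10 blockade mice (-1.08). Ddc, which completes the synthesis, fell after DSS (-1.75), IL-10 blockade (-1.98) and in TRUC mice (-1.28). Gch1, the first enzyme of the cofactor that Tph1 needs, rose in all 6 models, from 1.21 after DNBS to 2.51 after IL-10 blockade, whereas Pts, a later enzyme of the same path, fell in 4 (-0.73 after DSS to -0.45 after DNBS). Several of these enzymes are not confined to enteroendocrine cells.

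Other gut peptides were mostly scarce, with 5 of 9 tested. Tac1, the substance P precursor of enterochromaffin cells and neurons, rose in 4 models (3.18 after IL-10 blockade, 2.84 after DSS, 2.77 in TRUC mice and 1.85 after anti-CD40), from a mean of 38.6 CPM in Rag2-/- controls to 264 CPM in TRUC mice. Neuron markers fell in TRUC and IL-10 blockade mice and rose after DSS, and which cells carried Tac1 was not tested. Ppy, pancreatic polypeptide, fell with TCT (-2.29) and in TRUC mice (-2.17) and rose after DSS (1.85), the signs that Pyy, its relative, had in those models, and their exons share no 50-base window. Sct, secretin, rose after IL-10 blockade (1.77), DSS (1.60) and anti-CD40 (1.59). Nmb was not called in any model, with values from -0.32 to 0.41.

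**Figure D5:**
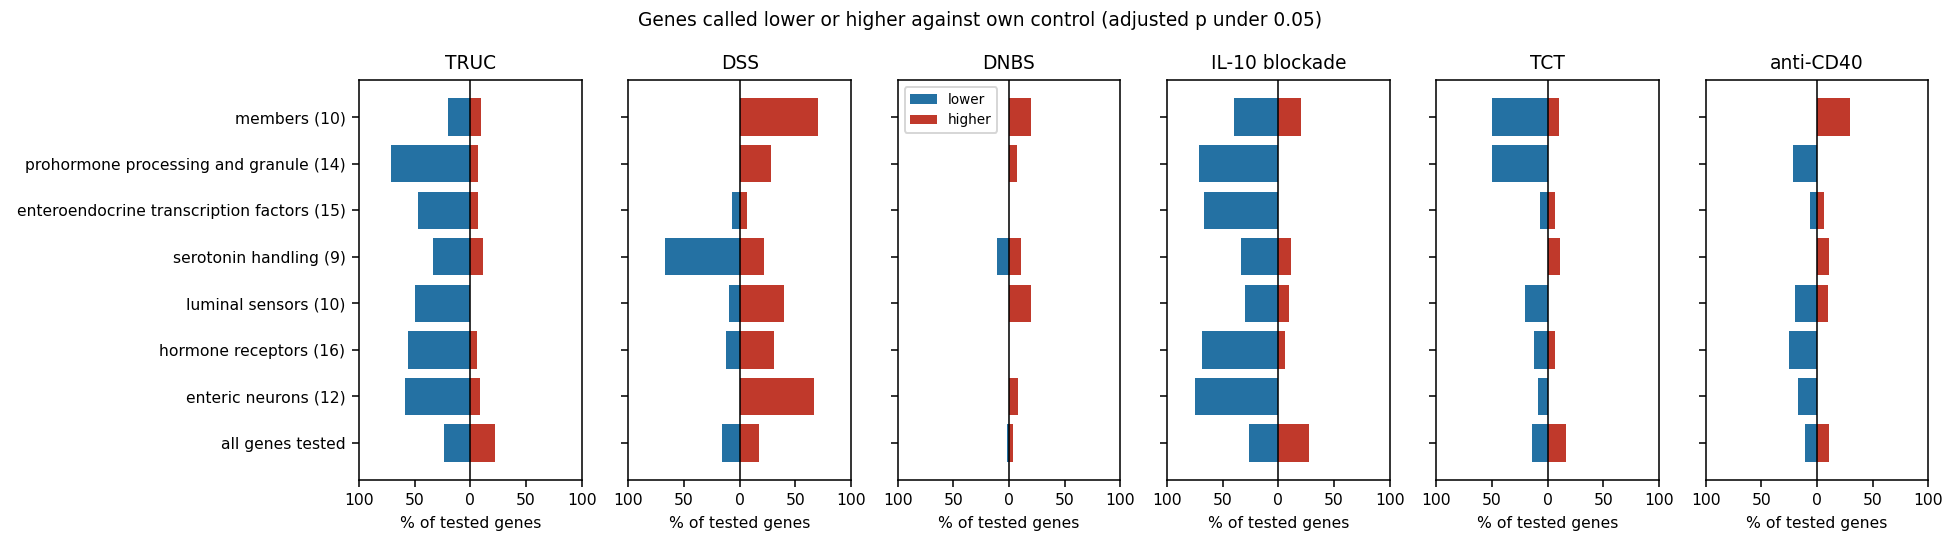
Percent of the tested genes of each list (number in brackets) called lower (blue, left) or higher (red, right) against own control at an adjusted p under 0.05, with all genes tested as the last bar. The granule, transcription factor, receptor and neuron lists lean to the lower side in TRUC and IL-10 blockade mice, and the members and neuron markers to the higher side after DSS.

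Receptors for these hormones were lower in TRUC (9 of 16 tested) and IL-10 blockade mice (11 of 16), with 1 higher in each, the serotonin receptor Htr7 (2.17 and 2.37). DSS had 2 lower and 5 higher, TCT 2 lower and 1 higher, anti-CD40 4 lower and 0 higher (1 at an unadjusted p under 0.05, 0 with DESeq2), and DNBS 0 in either direction by edgeR (5 lower at an unadjusted p under 0.05, 3 with DESeq2). Over all genes 23.4% were lower in TRUC mice, 26.1% after IL-10 blockade, 16.3% after DSS, 14% with TCT and 10.7% after anti-CD40. The shares higher were 17.7% after DSS and 16.1% with TCT. The lower receptors after DSS and both TCT counts were thus below the shares of all genes. The 5 higher after DSS became 2 without DSS mouse 8 and 3 without wild-type control 1 or 4, and the 2 lower there became 1 without DSS mouse 6 or 8 or wild-type control 1 or 2. With TCT 4 were lower without DSS mouse 8 or anti-CD40 mouse 8, and the 4 lower after anti-CD40 ran from 0 without mouse 7, 1 without mouse 6 and 2 without Rag1-/- control 2 to 8 without mouse 8. Htr7 also rose after DSS (3.29) and with TCT (3.04). Htr4, another serotonin receptor, fell in TRUC (-2.43), DSS (-1.95), IL-10 blockade (-1.83) and anti-CD40 mice (-1.35), as did Npy1r, which peptide YY can bind (-1.74, -1.18, -2.50 and -1.36). The somatostatin receptor Sstr2 fell in IL-10 blockade (-2.91), TCT (-2.04), anti-CD40 (-1.56) and TRUC mice (-1.28). Npy4r, the receptor of pancreatic polypeptide, fell in IL-10 blockade (-2.16) and TRUC mice (-2.0), and Glp2r after IL-10 blockade (-1.09).

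Luminal sensors divided by gene. Of 10 tested, 5 were lower in TRUC mice (0 higher, and 1 with DESeq2), 1 lower and 4 higher after DSS, 2 higher after DNBS, 3 lower and 1 higher after IL-10 blockade, 2 lower with TCT, and 2 lower and 1 higher after anti-CD40. Over all genes 26.1% were lower after IL-10 blockade and 14% with TCT, shares close to those of the sensors there. The sensor counts moved with single mice: the 5 in TRUC mice became 2 or 3 without TRUC mouse 2, 3 or 4 or Rag2-/- control 2 or 4, and the 4 after DSS became 1 or 2 without DSS mouse 8 or any 1 of the wild-type controls. The 2 after DNBS became 0 without DNBS mouse 14 and 1 without any 1 of the wild-type controls, and the 2 lower after anti-CD40 became 0 or 1 without anti-CD40 mouse 6 or 7 or Rag1-/- control 3 or 4. Ffar2, a receptor of short-chain fatty acids on L cells and neutrophils, averaged 4.22 CPM in wild-type controls and rose after IL-10 blockade (2.13), DNBS (2.10) and DSS (1.18), but fell with TCT (-1.55), where Insl5 and Gcg also fell. Olfr78, another receptor of such acids, fell in 4 models, most after IL-10 blockade (-2.28) and TCT (-1.96). The stretch channel Piezo2 fell in IL-10 blockade (-1.56), TRUC (-1.12) and anti-CD40 mice (-0.79). Gpbar1, the bile acid receptor, rose after DSS (1.30) and anti-CD40 (1.19) and fell in TRUC mice (-1.15), where the fatty acid receptor Ffar4 fell too (-1.08).

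Other cell types moved with the models and are given beside the members. Leukocyte markers rose throughout in 4 models (6 of 6 each in TRUC, DSS, IL-10 blockade and TCT mice), 5 of 6 rose after anti-CD40 (3 without Rag1-/- control 3 or 4, and 0 without anti-CD40 mouse 7), and 0 were called after DNBS (1 at an unadjusted p under 0.05 and 4 with DESeq2). Their sum was 183 to 241 CPM in wild-type controls and 558 to 2089.9 CPM after DSS, with the highest value in mouse 8. Goblet cell genes were lower in TRUC and TCT mice (3 of 6 each, against 23.4% and 14% of all genes), led by Clca1 at -3.98 and -1.96. Lower secretory-cell transcripts in TRUC and TCT mice were thus not limited to hormones. After IL-10 blockade, where Chga, Chgb and Tph1 also fell, 1 goblet cell gene was lower and 2 were higher, at a median of 0.38. Over all genes 26.1% were lower and 27.2% higher there. Tuft cell genes were higher after DSS (4 of 6, and 2 without DSS mouse 8 or wild-type control 4) and lower after IL-10 blockade (3 of 6), where 1 was also higher, with the list summing to 36.5 to 49.2 CPM against 31.7 to 33.7 CPM in the controls. In TRUC mice 1 tuft cell gene was lower and 2 higher, with TCT 2 were higher, and after anti-CD40 2 were lower and 1 higher. The TRUC shares were near those of all genes (23.4% lower and 22.4% higher). The mast cell protease gene Mcpt2 rose in all 6 models (2.19 to 4.13), although only 1 of 7 mast cell genes was higher after DNBS and after IL-10 blockade, and the mast cell marker Cpa3 averaged at most 0.858 CPM in any group. In TRUC, IL-10 blockade and TCT mice 1 of the 7 was lower. The mast cell list summed to 34.1 to 43.2 CPM in TRUC mice against 58.2 to 62.6 CPM in their controls. After IL-10 blockade the sum was 23.3 to 50.0 CPM against 50.4 to 53.7 CPM in the wild-type controls. Of the acinar genes only Cela1 was above 3 CPM on average, and the list summed to 58.1 to 85.3 CPM in TRUC mice against 440.0 to 477 CPM in their controls. The 4 distal colon Hox genes were not called by edgeR in 5 models (0 at an unadjusted p under 0.05, and 2 lower in TRUC and 1 in TCT mice with DESeq2, as with edgeR once IL-10 blockade mouse 4 was left out). After DSS 1 was lower (Hoxd12, -1.99) and 3 without IL-10 blockade mouse 4, with the list summing to 233 to 499 CPM against 725 to 943 CPM in the controls. The part of these shifts in the member results was not tested.

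Across the 29 mice, genes among the most like Chga in level were Scg5 (Pearson r = 0.882 of log2 CPM), Pcsk1n (0.878), Ctnna2 (0.872) and Celf3 (0.863). Of these, Scg5 and Pcsk1n are on the granule list, and neurons use all 4. Among the members, Pyy and Insl5 were the most alike (r = 0.908), followed by Chgb with Tph1 (0.884) and Chga with Chgb (0.825). The order changed without IL-10 blockade mouse 4, where Chgb with Tph1 (0.867) and Gcg with Pyy (0.833) came before Pyy with Insl5 (0.820). Sst stood apart from the L-cell hormones, at r = 0.0720 with Pyy and -0.0497 with Insl5, but at 0.426 and 0.444 without that mouse. Cck was weakly related to all other members but Nts, from -0.379 with Tph1 to 0.0931 with Gcg, and at 0.496 with Nts. These coefficients describe mice that share controls and treatment groups and are not independent points.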

How the data were processed

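RNA from colon segments of 29 mice was sequenced, and the authors deposited whole-number read counts per Ensembl gene in 1 table. Their processing notes name Trimmomatic, HISAT2, HTSeq and GRCm38, and the versions are not given in the sources used here. The 92 spike-in rows held 0 counts and were left out. Symbols were matched for 54409 of 54532 identifiers.

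Counts were fitted with edgeR 4.0.16 (quasi-likelihood test, TMM scaling, 9 groups, mean count per gene 3 or more), with Benjamini-Hochberg adjustment over 18616 genes and a threshold of 0.05. Standard errors were derived from each log2 fold change and its F statistic (size over root F). Per-mouse levels are CPM of the TMM-scaled library. A further fit used the mean log count of 12 epithelium genes as the scale. The scripts were tested on simulated counts. DESeq2 1.42.0, limma 3.58.1 and R 4.3.3 were used, with Python 3.11.15, pandas 2.3.3, scipy 1.17.1 and matplotlib 3.10.9. Depth was 10725564 to 14977094 counts, and intervals of count ratios and the limit of 3 counts cover counting error only, since reads without molecular identifiers are not independent molecules. The labels do not say from which cage or litter each mouse came, so p-values measure the spread between these mice.

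The members and gene lists were chosen with earlier results of these data known. All members are named, and from each other list up to 4 genes with the highest mean CPM and up to 4 called in the most models, except that some genes are not reported here. Lists of epithelium, goblet, tuft, neuron, mast, islet, acinar, leukocyte, smooth muscle and distal colon genes served as markers of other cells. Of the islet list 3 genes were tested, with 1 lower after IL-10 blockade and 1 with TCT, and of the acinar list 3, with 1 lower in TRUC, DSS, TCT and anti-CD40 mice, 2 lower after IL-10 blockade, and 1 higher in TRUC and IL-10 blockade mice. Alternatives were RLE and upper quartile scaling, other filters, DESeq2, fits on 2 groups alone, a threshold of 0.01, each mouse left out in turn, replicate numbers as a block, and other control groups. Leaving out IL-10 blockade mice 3 and 4 together, and an epithelium list without Cdx2, were added after seeing the data. The replicate numbers did not pair the mice: same-numbered mice correlated between -0.0518 and 0.0556.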

Additional observations from a re-analysis of the deposited data

Results flagged for a closer look

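Each of the 10 members was examined for a mouse far from the rest in the 2 groups of 4 mice, IL-10 blockade and TRUC. Among these 20 sets of values 2 had one, both for Nts. In the IL-10 blockade group mouse 4 was at 23.9 CPM of Nts and the other 3 at 0.758 to 2.60 CPM. In the TRUC group 1 mouse was at 0.147 CPM, which is 2 reads, and the other 3 had none. Chance alone marks about 1 such set in 20, the sets reuse the same mice, and at 2 reads the TRUC value is within counting error of 0.

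The change against own control differed between the 6 models for 9 members by edgeR's F test of equal contrasts. The adjusted p was 1.5e-06 for Chga, 1.1e-06 for Chgb, 9.6e-06 for Tph1 and 0.00024 for Neurod1. It was 8.4e-07 for Gcg, 0.013 for Pyy and 0.011 for Insl5. It was 0.0063 for Sst and 0.0057 for Nts, and the Nts result was lost without IL-10 blockade mouse 4 (adjusted p = 0.15).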

How the results depend on the processing

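RLE scaling left all member calls and directions as they were. In TRUC mice the lower members were 2 in the fit of all mice, 7 with DESeq2 or on the 2 groups alone, 5 with the replicate block, 5 without IL-10 blockade mice 3 and 4, and 2 to 4 with single mice left out, as in each range that follows. After DSS the higher members ranged from 3 (without DSS mouse 8) to 9. After DNBS they were 2, 4 with DESeq2 or without mice 3 and 4, 1 at a threshold of 0.01, and 1 to 4 over single mice. After IL-10 blockade the lower members were 4, 1 with the replicate block, 2 without mice 3 and 4, and 3 to 4 over single mice, and the higher members 2, 1 with DESeq2, and 2 to 4. With TCT the lower members were 5, 3 against wild-type controls, and 4 to 7, and Gcg turned to 0.33 and Pyy, not called in either fit, to 0.093 against wild-type controls. After anti-CD40 the lower members were 0, and 1 on the 2 groups alone or against Rag2-/- controls, and the higher members 3, 1 at a threshold of 0.01, and 2 to 3. The replicate block changed no other count, and the numbers do not pair the mice.

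Relative to epithelium, the lower members in TRUC mice were 2, 4 without a filter, 8 with the list's median, and 2 to 6. The higher members after DSS were 8, and 3 to 10. After DNBS they were 1, 2 without a filter, 0 at a threshold of 0.01, and 0 to 2. After IL-10 blockade the lower members were 4, 7 with the median, and 4 to 6, and the higher members 2, 1 with the median or at 0.01, and 1 to 2. With TCT the lower members were 4, 7 with the median, 0 at 0.01, and 1 to 5, and the higher member was lost (0) against wild-type controls. After anti-CD40 the lower members were 0, 3 with the median, 1 against Rag2-/- controls, and 0 to 1, and the higher members 1, 2 without a filter or against Rag2-/- controls, and 1 to 2.

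Between controls, Rag2-/- against wild-type gave 2 members, 1 with upper quartile scaling or at 0.01, 4 without mice 3 and 4, and 1 to 4, and Rag1-/- against wild-type 1, 3 without mice 3 and 4, and 1 to 3. The difference between models held for 8 to 9 members. The causes were not tested. Cck in the Rag-deficient controls and Nts in most groups rest on few reads, which limits both.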
